A study of Rattus norvegicus with 25 samples.

Results

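The step from weaning to adolescence was read from 10 of the 25 RNA-seq libraries of rat medial prefrontal cortex, 5 taken at postnatal day 21 (P21) and 5 at postnatal day 35 (P35). All animals were wild-type Wistar rats, and the libraries were chosen by their labelled age alone. The remaining 15 libraries, 5 each at P8, P14 and P70, entered the fit only to estimate the spread between libraries and to place each transcript in its longer course. Whether the 5 libraries of an age are 5 different animals is not stated in the labels, nor is sex, so the spread behind every p-value may be partly technical. Because the tissue is bulk cortex, fewer cells of a type and less RNA per cell cannot be told apart.

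Rat pups are weaned at about the earlier of these ages and enter adolescence at about the later one. In this period the medial prefrontal cortex, which serves working memory, planning and control of emotion, is known to add myelin, to refine excitatory synapses and to mature its inhibitory circuits, while growth of axons and birth of glia slow down. The deposited table is keyed by Ensembl gene IDs, does not pair them with names, and 0 of the IDs matched the name table used here. Transcripts are therefore followed by ID, level and course, with 2 rising and 2 falling IDs named and others called by their rank. Labelled tissue and cell types were not checked against marker genes for the same reason.

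Of 29516 gene IDs listed, 14128 reached at least 1 FPKM (a level corrected for the length of the transcript and the number of fragments mapped) in at least 5 of the 25 libraries and were tested. A library detected 13066 ± 144 gene IDs at P21 and 13028 ± 172 at P35 at a level of 1 FPKM (SD, n = 5 each; p = 0.627, adjusted over 3 library measures 0.675, two-sided exact permutation). The summed FPKM of a library ran from 473265 to 1504512 at P21 and from 569671 to 1259472 at P35, and the 10 most abundant gene IDs of each library held 42.4% to 67% and 45.6% to 57.8% of them. Both measures had an adjusted p of 0.675 (exact permutation test). Ratios between libraries at gene IDs above 0 in only some of them put P21 replicate 5 at 0.386 of the median depth. P21 replicate 3 stood at 0.651, and the other 8 libraries at 0.951 to 1.31. With these depths, whole reads were recovered from the values of 9467 tested gene IDs. They summed to 1905437 in P21 replicate 5 and to 5909064 in P21 replicate 1. Spearman's rho between libraries had a median of 0.968 within P21 (10 pairs), 0.971 within P35 (10 pairs) and 0.968 between the ages (25 pairs), so libraries of different age were about as alike as libraries of the same age. P35 replicate 4 lay 0.202 log2 units above its age mean at the median gene ID and P35 replicate 5 lay 0.174 below it, while the other 8 libraries lay within 0.0544 of theirs.

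Most transcripts held their level across weaning. Levels were compared on the scale log2(FPKM + 0.5) with limma, 1 mean per age, and a gene ID was called at a Benjamini-Hochberg adjusted p under 0.05. Over all tested gene IDs the log2 change had a median of 0.00, with quartiles of -0.12 and 0.13. For 10413 gene IDs, 73.7% of those tested, the 95% confidence interval of the change lay wholly within 1.5-fold in either direction, and for 12706 (89.9%) it lay within 1 log2 unit. These intervals are per gene ID and are not adjusted for the number tested.

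A small set was called as changed: 1.62% of the gene IDs tested, 77 higher at P35 (0.545%) and 152 lower (1.08%). Before adjustment, 1718 gene IDs had a p under 0.05 (limma), so a gene ID that was not called may still have changed. The rises had a median of 0.59 log2 units, with quartiles of 0.49 and 0.82, and the falls a median of -0.51, with quartiles of -0.64 and -0.43. A change of at least 1.5-fold was estimated for 39 of the 77 rises and 57 of the 152 falls. Over all gene IDs tested, called or not, the confidence interval lay wholly beyond 1.5-fold upward for 19 and downward for 20. Not all of these were called. In ratios of mean FPKM, the median called rise was 1.62-fold, and the median called fall left 0.665 of the P21 level. Groups without overlap between P21 and P35 made up 3.68% of tested gene IDs, 172 higher and 348 lower at P35, among them 58 of the 77 called rises and 122 of the 152 called falls.

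Calls came from every range of abundance. Of gene IDs averaging under 2 FPKM over both ages, 1.81% were called, as were 1.65% of those from 2 to 10 FPKM, 1.68% of those from 10 to 50 FPKM and 0.624% of those at 50 FPKM or more. In that most abundant class of 962 gene IDs, 1 rose and 5 fell. The median standard error of the log2 change was 0.161 in the lowest class, 0.131 and 0.126 in the middle classes and 0.167 in the highest. Where whole reads were recovered, which held for 144 of the 229 called gene IDs, a typical library held 217 reads of the median called gene ID, and 1 called gene ID was under 10 reads.

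**Figure D1:**
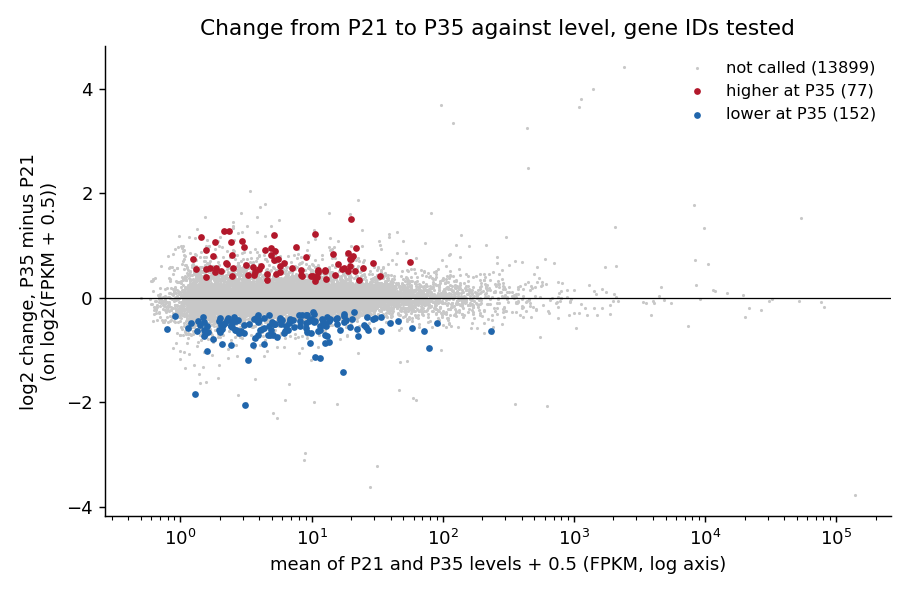
Each point is 1 of the 14128 gene IDs tested, with its mean level over the P21 and P35 libraries on a log axis and its log2 change from P21 to P35. The 77 called rises (red) and 152 called falls (blue) spread over the range of levels, and the 13899 gene IDs not called (grey) include the largest estimated changes, up to 4.41 log2 units.

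ENSRNOG00000015763 had the largest rise among called gene IDs whose P21 and P35 libraries did not overlap. In the 5 P21 libraries, in replicate order, it stood at 10.1, 9.29, 10.4, 8.29 and 10.8 FPKM, and in the 5 P35 libraries at 31, 36.2, 23.5, 30.3 and 23.7 FPKM. Every P35 library lay far above every P21 library. These values rested on 70 to 191 recovered reads per library at P21 and 379 to 658 at P35. The mean went from 9.76 ± 0.983 to 28.9 ± 5.39 FPKM (SD, n = 5), a 2.97-fold rise (log2 change 1.51 ± 0.16 SE, 95% interval 1.17 to 1.84, limma adjusted p = 8.64e-06). It had been at 0.246 FPKM at P8 and 1.11 at P14, and stood at 29.1 at P70, 0.02 log2 units above P35 (limma adjusted p = 1).

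ENSRNOG00000025691 rose from below the level used as the filter to clear detection. Its P21 libraries held 0.573, 0.877, 0.514, 0.749 and 1.04 FPKM, and its P35 libraries 2.47, 2.13, 3.09, 2.55 and 2.44 FPKM. The lowest P35 library lay above the highest P21 library. Recovered reads were 15 to 44 per library at P21 and 103 to 168 at P35, so counting error is larger here than for the preceding ID. The mean went from 0.75 ± 0.216 to 2.54 ± 0.349 FPKM (SD, n = 5), or 3.38-fold, with a log2 change of 1.29 ± 0.13 (SE; limma adjusted p = 5.68e-06). The added 0.5 FPKM shrinks changes at such levels: in a fit to the recovered reads themselves (limma's voom) the log2 change was 1.81 ± 0.20 (SE, adjusted p = 4.59e-06). Its mean was 0.185 FPKM at P8, 0.27 at P14 and 3.81 at P70, the last with an adjusted p of 0.258 against P35 (limma).

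ENSRNOG00000010172 had the largest fall of the called gene IDs and the smallest p of all gene IDs tested. P21 libraries held 4.62, 4.47, 4.81, 4.64 and 3.76 FPKM and P35 libraries 0.838, 0.65, 0.724, 0.748 and 0.553 FPKM. The libraries of each age were close together and those of P35 all lay under 1 FPKM. Reads recovered numbered 58 to 243 per library at P21 and 21 to 35 at P35. The mean dropped from 4.46 ± 0.411 to 0.703 ± 0.107 FPKM (SD, n = 5), a 6.35-fold fall (log2 change -2.04 ± 0.12 SE, 95% interval -2.28 to -1.81, limma adjusted p = 9.67e-11; -2.67 ± 0.18 SE by voom on recovered reads). It had fallen from 10.6 FPKM at P8 to 8.6 at P14 (limma adjusted p = 0.0472), and fell further to 0.237 FPKM at P70 (log2 change from P35 -0.71, limma adjusted p = 0.00599), where 2 to 13 reads per library remained.

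ENSRNOG00000016977 fell from a far higher level. It stood at 22.8, 25.5, 26.6, 20.9 and 27.6 FPKM in the P21 libraries and at 9.47, 7.41, 9.06, 12.4 and 7.07 FPKM in the P35 libraries. The groups were well apart, with 388 to 999 reads per library at P21 and 245 to 437 at P35. Its mean went from 24.7 ± 2.76 to 9.07 ± 2.1 FPKM (SD, n = 5), a 2.72-fold fall (log2 change -1.41 ± 0.15 SE, limma adjusted p = 5.68e-06). At P8 and P14 it had stood at 83 and 80.9 FPKM (log2 change -0.05, limma adjusted p = 0.841), and at P70 it stood at 7.37 FPKM (adjusted p = 1 against P35).

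**Figure D2:**
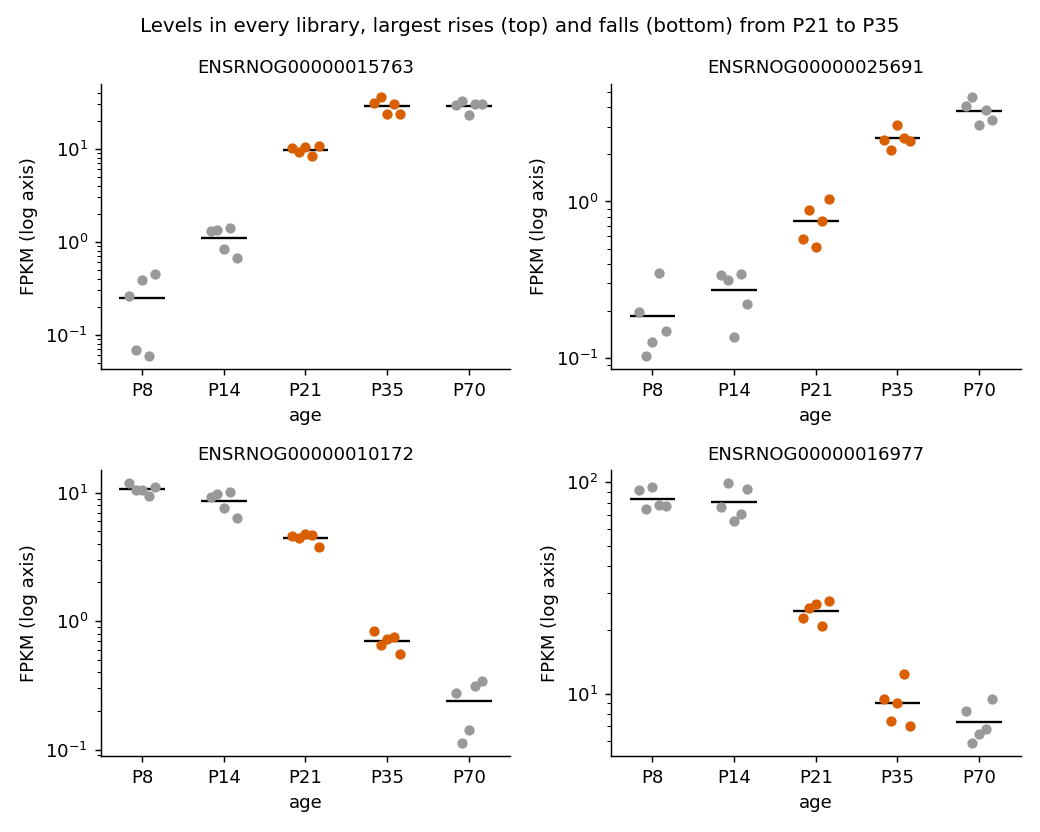
FPKM on a log axis in each of the 25 libraries, by age, for 4 called gene IDs. They are the 2 largest rises (top) and 2 largest falls (bottom) among calls whose P21 and P35 libraries did not overlap. Points are libraries, with P21 and P35 in orange, and bars are means of 5. In all 4 panels the P21 and P35 libraries do not overlap, and the gene ID at lower left falls from 4.46 to 0.703 FPKM and on to 0.237 at P70.

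The 15 largest rises among called gene IDs with libraries that did not overlap ran from 1.51 down to 0.90 log2 units. Their adjusted p was 4.94e-06 to 0.0327 (limma). They were mostly scarce transcripts: mean levels at P21 were 0.377 to 14.4 FPKM, 5 of the 15 being under 1 FPKM, and at P35 1.48 to 28.9 FPKM. Of the 15, 13 had a higher mean at P14 than at P8. The sixth rise was the largest as a ratio, 3.93-fold, from 0.377 to 1.48 FPKM, after 0.0618 FPKM at P8 and 0.0632 at P14. The eighth went from 0.692 to 2.01 FPKM, after 0.0782 and 0.101. The twelfth, far more abundant, went from 14.4 to 28.2 FPKM, after 0.5 at P8 and 2.8 at P14, and stood at 27.4 at P70. All 3 started at no more than 0.5 FPKM at P8.

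A few rises took another course. The fourth was highest early, at 19.9 FPKM at P8 and 26.7 at P14, dropped to 5.57 at P21, and then stood at 14.7 FPKM at P35 and 10.3 at P70. Its P35 libraries fell apart into 21.6 and 22.1 FPKM in replicates 1 and 4 and 11.5, 8.86 and 9.54 in replicates 2, 3 and 5, all above the P21 range of 4.75 to 6.58. The fourteenth dipped at P21 as well, with means of 1.81, 0.937, 0.577, 1.58 and 1.72 FPKM over the 5 ages. Over all 77 rises, 10 (13%) had their lowest mean of the 5 ages at P21. The share over all gene IDs tested, 19.4%, is not a like one. Every rise was chosen for a P35 mean above its P21 mean, which not all gene IDs tested have. In 53 of the rises the mean rose at every step from P8 to P35, the last of which chose them.

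The 15 largest falls, likewise among called gene IDs without overlap, ran from -2.04 to -0.78 log2 units, with adjusted p of 9.67e-11 to 0.041 (limma). Means were 1.63 to 103 FPKM at P21 and 0.586 to 53.1 at P35. At P70 all 15 were under their P21 mean and 14 under their P35 mean, as were 7386 and 7735 of all 14128 gene IDs tested. The seventh fall was the most abundant of them: 108, 104, 103, 93.6 and 109 FPKM in the P21 libraries and 53.8, 45.8, 47.4, 65.1 and 53.3 in the P35 libraries. Its means over the 5 ages were 302, 222, 103, 53.1 and 40.2 FPKM, a decline at every step. The fifth fall instead had its highest mean at P21, with 10.2, 8.9, 14.1, 6.15 and 4.81 FPKM over the 5 ages.

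Of the 152 falls, 11 (7.24%) had their highest mean of the 5 ages at P21. The share over all gene IDs tested, 8.95%, is not a like one. Every fall was chosen for a P35 mean under its P21 mean, which not all gene IDs tested have. In 80 of the falls (52.6%) the mean fell at every step from P8 to P35. Among all 14128 gene IDs tested, 2939 (20.8%) had means that fell at every step to P35 and 1841 (13%) had means that rose at every step. The step from P21 to P35 chose the called gene IDs, so they met the last of these steps beforehand. Their shares are therefore raised against those over all gene IDs tested.

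Few transcripts crossed the level of 1 FPKM in this step. A gene ID under 1 FPKM in all P21 libraries and at 1 FPKM or more in all P35 libraries was found 6 times, of which 3 were called. The opposite was found 10 times, of which 6 were called, ENSRNOG00000010172 among them. One other called fall, -1.84 log2 units with an adjusted p of 0.0366 (limma), is not among the 15 because its libraries overlapped. It was listed at 0 in P21 replicate 1 and in all 5 P35 libraries, and at 2.48, 1.32, 1.97 and 2.23 FPKM in P21 replicates 2 to 5. Its call was lost in 9 of the 10 fits that leave out 1 library, with limma adjusted p up to 0.11, and kept only without P21 replicate 1. Of the 117 gene IDs with an estimated change of at least 1 log2 unit, 101 were not called, and 36 of these ranged from under 1 to at least 10 FPKM within a single age.

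The 5 most abundant rises had log2 changes of 0.34 to 0.68 and the 5 most abundant falls of -0.47 to -0.96. The most abundant rise went from 42.4 to 68.5 FPKM (log2 change 0.68 ± 0.09 SE, limma adjusted p = 0.000191), with P21 libraries at 38 to 44.2 and P35 libraries at 55.7 to 76.6 FPKM, and had climbed from 13.4 FPKM at P8. The most abundant fall went from 282 to 184 FPKM (-0.64 ± 0.16 SE, limma adjusted p = 0.0439). Its libraries overlapped, since P35 replicate 4 stood at 253 FPKM against 250 in P21 replicate 2. Its call was lost in 9 of the 10 fits that leave out 1 library (limma adjusted p from 0.0129 without P35 replicate 4, the fit that kept it, to 0.116 without P21 replicate 3). This gene ID had been at 1843 FPKM at P8 and 884 at P14, so most of its decline came before weaning. The 77 rises summed to 501 to 559 FPKM per library at P21 and 696 to 998 at P35, and the 152 falls to 1985 to 2169 and 1239 to 1536 FPKM. These sums describe gene IDs chosen on the same libraries and carry no test.

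The steps from P8 to P14 and from P21 to P35 share no library, so they can be set side by side, although both tests use 1 estimate of the spread per gene ID. Of the 77 gene IDs that rose from P21 to P35, 34 (44.2%) had also risen from P8 to P14, 6 (7.79%) had fallen and 37 were not called there (limma, adjusted p under 0.05). Over all gene IDs tested, 13.6% rose and 15.3% fell in the earlier step. Of the 152 that fell from P21 to P35, 51 (33.6%) had also fallen from P8 to P14 and 18 (11.8%) had risen. In estimates, 56 of the 77 rises (72.7%) were higher at P14 than at P8, against 43.2% of all gene IDs tested, and 91 of the 152 falls (59.9%) were lower, a share close to the 56.8% over all gene IDs tested. The median change from P8 to P14 was 0.26 log2 units for the rises and -0.11 for the falls, beside -0.06 for all gene IDs tested. No test of these shares was made.

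**Figure D3:**
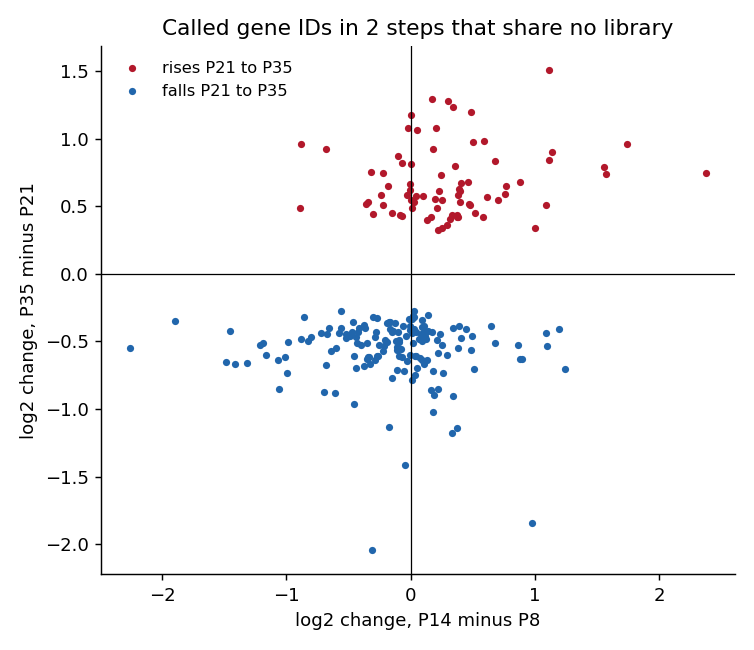
Log2 change from P21 to P35 (vertical) against log2 change from P8 to P14 (horizontal) for the 229 called gene IDs, 77 rises in red and 152 falls in blue. Of the rises, 56 (72.7%) lie to the right of 0, against 43.2% of all gene IDs tested, and of the falls, 91 (59.9%) lie to the left, against 56.8%.

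Levels at P70 lay on the P35 side of P21 for every called gene ID. The rising group had median levels of 1.69, 2.52, 3.99, 6.48 and 6.92 FPKM over the 5 ages, and the falling group of 10.6, 8.84, 6.34, 4.41 and 4.06 FPKM. All 77 rises had a P70 mean above their P21 mean, and 61 also above their P35 mean. All 152 falls had a P70 mean below their P21 mean, and 106 also below their P35 mean. Of all 14128 gene IDs tested, the P70 mean was above the P21 mean in 6740 and below it in 7386. It was above the P35 mean in 6391 and below it in 7735. The P21 and P35 libraries chose the called gene IDs, so the comparison of P70 with either is a description.

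**Figure D4:**
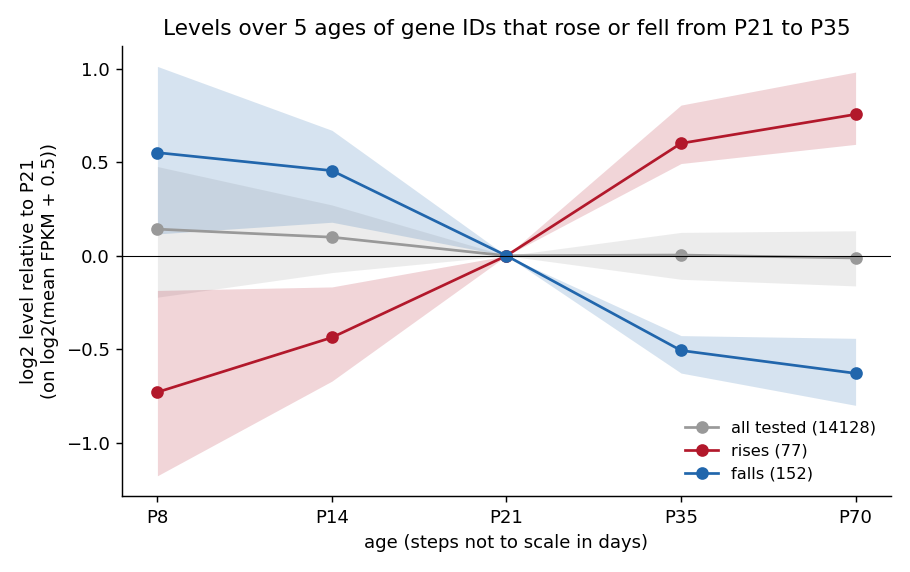
Median log2 level relative to P21 at the 5 ages for the 77 rises (red), the 152 falls (blue) and all 14128 gene IDs tested (grey), with bands from the lower to the upper quartile of gene IDs. Lines meet at 0 at P21 by construction; the rises go from -0.73 at P8 to 0.60 at P35 and 0.76 at P70, and the falls from 0.55 to -0.51 and -0.63.

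The number of calls moved with single libraries. Without any 1 of the 10 libraries in turn, 98 of the 229 calls were made every time, 39 rises and 59 falls, among them 13 of the 15 largest rises and 12 of the 15 largest falls. All 229 kept their direction in each of these fits. Leaving out P21 replicate 3 gave 123 calls, P35 replicate 2 gave 137, P21 replicate 4 gave 144, P21 replicate 2 and P35 replicate 1 gave 145 each, and P35 replicate 3 gave 151. P35 replicate 5, which lay low at the median gene ID, was the lowest P35 library at 53 of the 77 rises, and without it rises numbered 174 and falls 131. P35 replicate 4, which lay high, was the highest at 45 of the rises. Without P35 replicate 4 there were 48 rises and 129 falls, and without both, 58 and 71. Among calls, 33.6% were rises with the values as deposited, 42.3% with quantile normalization, 49% with scaling by median of ratios and 66.7% (of 3) once FPKM totals were equal. The part of these library offsets in the balance of rises and falls was not tested.

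Libraries whose titles share their first number may not be independent, and the main fit treats them as if they were. The 5 libraries carried 3 first numbers at P21 and 3 at P35. The consensus correlation of libraries sharing a number was 0.33. With that number as a random effect, 78 gene IDs were called, 27 rises and 51 falls, all 78 of them among the 229. From the 10 libraries of P21 and P35 alone there were 74 calls, of which 70 were among the 229. A fit to recovered reads called 145 of 9467 gene IDs (1.53%), 53 higher and 92 lower, and 129 of these were among the 144 called gene IDs for which reads were recovered.

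**Figure D5:**
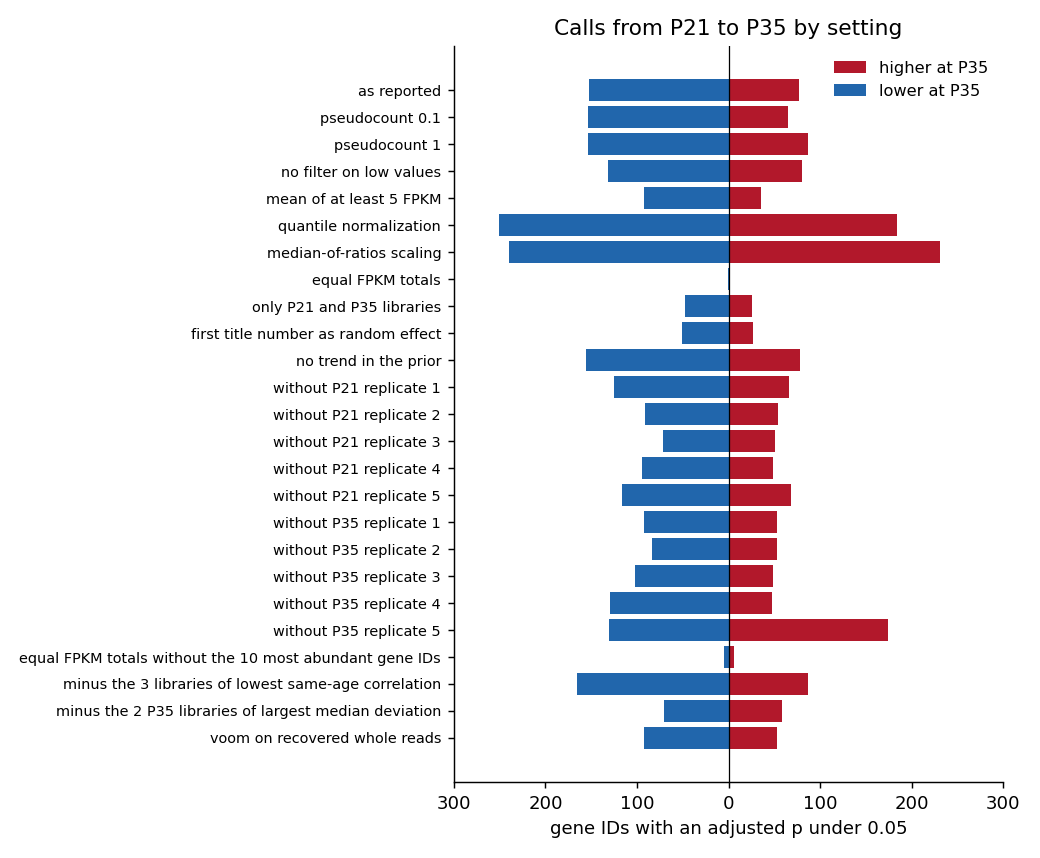
Number of gene IDs called from P21 to P35 under each setting, with rises in red to the right of 0 and falls in blue to the left. The count was 229 as reported and ran from 3 with equal FPKM totals to 471 with median-of-ratios scaling.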

How the data were processed

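Per the labels' protocols, ribosomal RNA was depleted, libraries were sequenced as 50 bp single-end reads, and GSNAP aligned them to rn4. BWA 0.6.1, bedtools and Cufflinks appear in the submitters' processing notes, with no role given. The authors deposited 1 table of FPKM values, with no annotation release, strand setting or treatment of multi-mapping reads stated. Columns were matched to libraries by title; replicate numbers follow accession order.

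All 25 libraries entered 1 limma 3.58.1 fit (R 4.3.3; trend with level, 20 residual degrees of freedom) on log2(FPKM + 0.5), two-sided, adjusted over 14128 gene IDs. Whole reads were recovered for 67% of tested gene IDs from the steps of low values (99.92% of their values within 0.05 reads of whole). A gene ID was kept only where at least 95% of its values met that bound, so the rule partly sets this share. The smallest fitting number of reads was taken, so a divisor shared by all libraries would be missed. FPKM is relative, so a few very abundant transcripts can shift all others in a library, and gene IDs that overlap or share reads with near-identical copies carry uncertain values.

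Named gene IDs are the 2 largest changes each way among calls with no overlap and at least 1 FPKM at the higher age. Ranks, given for 15 each way, use the same lists. The most abundant 5 each way were drawn from all calls, whether or not their libraries overlapped. Members and lists were chosen with earlier results of these data known. Gene lists prepared by symbol were not analysed here, since no IDs matched.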

Additional observations from a re-analysis of the deposited data

How the results depend on the processing

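The number of gene IDs called from P21 to P35 was 229, 77 rises and 152 falls. Filtering on a mean of 5 FPKM gave 127 (35 and 92), quantile normalization 435 (184 and 251), scaling by median of ratios 471 (231 and 240), equal FPKM totals 3 (2 and 1), the 10 libraries alone 74 (26 and 48) and a random effect of the first title number 78 (27 and 51). Among settings chosen after seeing the data, it was 11 (6 and 5) with totals made equal without the 10 most abundant gene IDs, 129 (58 and 71) without P35 replicates 4 and 5, and 145 (53 and 92) by voom on recovered reads, where the main test called 132 of the same 9467 gene IDs. With 1 library left out, calls ran from 123 to 305, rises from 48 to 174 and falls from 72 to 131. Pseudocounts of 0.1 and 1, no filter, no trend and leaving out the 3 libraries of lowest same-age correlation kept all 3 counts within 1.5 times. The 4 named gene IDs kept their direction in every setting in which they were tested and were called in each, except with equal FPKM totals, where ENSRNOG00000025691 had 1.34 (limma adjusted p = 0.093) and ENSRNOG00000016977 -1.34 (limma adjusted p = 0.3). The mean of at least 5 FPKM left ENSRNOG00000025691 and ENSRNOG00000010172 untested. The cause of these differences was not tested. No paired analysis was possible because the libraries of both ages share 0 first title numbers and replicate numbers only follow accession order. Alternatives for gene lists were not run.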
